A study of Mus musculus with 2 samples.

Results

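The genes described here encode 10 enzymes that make arginine, break it down, or build creatine and polyamines from it: Ass1, Asl, Arg2, Gatm, Gamt, Odc1, Srm, Sms, Amd1 and Sat1. They were read in kidneys of male mice lacking estrogen sulfotransferase (EST, the product of Sult1e1, which inactivates estrogens by attaching sulfate) and of male wild-type mice, with acute kidney injury (AKI) brought on by stopping and restoring the blood flow to both kidneys. The 10 enzymes were chosen by pathway, with the values of both pools already known (the low Arg2 in the EST KO pool among them), so those values describe the members and support nothing. A member was read from every probe set that the platform annotation gives to that gene alone. By that rule 8 of the 10 genes were read, from 11 of the 45101 probe sets on the array and out of 18194 genes with such a probe set. No probe set carried the symbol Amd1, and the 3 probe sets of Sms were annotated jointly to a pseudogene, Sms-ps.

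The EST KO AKI group was 1 pool of 124 mg of kidney from 6 EST KO mice, and the WT AKI group 1 pool of 180 mg from 3 wild-type mice. All were C57BL/6 males (the age, 8 weeks, is stated for the wild-type mice) whose kidneys were taken 24 h after 30 min of warm bilateral ischemia, so both pools were injured and no uninjured kidney is compared. Each pool was read on 1 array, so the spread between mice is unknown, no test between genotypes is possible, and every difference below compares these 2 pools. The cells in which EST was deleted and the part of the gene removed are not given in the labels. One protocol field calls the EST KO tissue liver while the other fields call it kidney. The kidney genes Umod (22735 in the EST KO and 25568 in the WT pool) and Slc34a1 (28347 and 16871, in the same order) were bright in both, and Alb, the albumin gene that defines hepatocytes, was below background in both (522.3 in the EST KO and 487.9 in the WT pool). Of the other genes of the hepatocyte list, Apoa1, Ahsg, Tat and Otc were also below background in both pools. Ttr, which encodes transthyretin, read 11957 in the EST KO pool and 1716 in the WT pool. Cyp2e1, a cytochrome P450, was bright in both, at 20655 in the EST KO pool and 11569 in the WT pool. The hepatocyte list is thus mixed and does not settle the label by itself. The bright Umod and Slc34a1 show that the EST KO pool held kidney tissue.

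Values are intensities on a linear scale. Background was the 95th percentile of 129 probe sets for families with little or no expression in kidney, such as odorant receptors, 638.3 on the EST KO array and 676.1 on the WT array. A gene was called measured if its brightest probe set lay above background in at least 1 pool. A value below background was set to that level, so that a fold against it is a lower bound, written "at least". Sult1e1 itself read 17.2 in the EST KO pool and 472.7 in the WT pool, below background in both, so it does not check the genotype label.

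Arginine is made in the kidney from citrulline that arrives in the blood: Ass1 joins citrulline to aspartate and Asl splits the product into arginine and fumarate, mainly in the proximal tubule. Arginine then has several uses. Arginases turn it into ornithine and urea, Gatm moves its amidino group to glycine for creatine, and nitric oxide synthases oxidise it. Ornithine is decarboxylated by Odc1 to putrescine, from which Srm and Sms make spermidine and spermine with aminopropyl groups that Amd1 provides, and Sat1 acetylates those polyamines for breakdown or export. Odc1 is known as an androgen-induced gene of the male mouse kidney.

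Promoter sequence from RefSeq (GRCm38.p6) was held for 7 of the 10 members. Those of Odc1 and Sat1 are shown because these genes encode opposite ends of polyamine turnover, synthesis and acetylation, and were read well above background in both pools. Capitals mark the GC box, GGGCGG on either strand, the sequence bound by Sp1-family factors. The Odc1 stretch (chr12:17544623-17544807, plus strand, 185 bases) ends before the first annotated transcript, and the Sat1 stretch (chrX:155216450-155216699, minus strand, 250 bases) ends at the transcript start.
Odc1: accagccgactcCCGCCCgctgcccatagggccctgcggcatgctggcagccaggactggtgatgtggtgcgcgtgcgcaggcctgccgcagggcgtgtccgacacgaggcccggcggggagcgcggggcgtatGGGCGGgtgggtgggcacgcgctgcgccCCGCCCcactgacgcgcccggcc
Sat1: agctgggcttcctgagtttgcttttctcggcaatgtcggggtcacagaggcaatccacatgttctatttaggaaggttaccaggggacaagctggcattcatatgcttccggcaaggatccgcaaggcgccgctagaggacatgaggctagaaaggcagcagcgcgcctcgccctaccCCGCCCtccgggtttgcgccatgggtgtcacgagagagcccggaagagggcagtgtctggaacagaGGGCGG
Over the 250 bases before the start, Odc1 held 4 GC boxes, 3 of them in the stretch shown, and Sat1 held 2. At least 1 GC box was found in 32.7% of 32851 promoter windows of that length, at least 2 in 16.7% and at least 4 in 4.09%. The E-box CACGTG, read the same on both strands, was in neither window and in 6.02% of all, and the androgen response half-site AGAACA, on either strand, was found 1 time in Sat1, not in Odc1, and in 16.1% of all. The motifs do not overlap in these windows, and a match of letters does not show a bound site.

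Of the 8 genes that could be read, 7 were measured. Only Odc1, Sat1 and Srm were above background in both pools. Asl, Gatm and Gamt were above it in the EST KO pool only, Arg2 in the WT pool only, and Ass1 in neither. In the EST KO pool Asl was the 1 member higher by 2-fold or more, and Arg2 the 1 member lower by 2-fold or more. Among all 7480 measured genes 3.02% passed 2-fold upwards and 1.40% downwards. None of the 3 members above background in both pools passed 2-fold, where 3.03% of 6115 such genes did so upwards and 1.21% downwards (4.24% either way). Asl, Gatm and Arg2, above background in 1 pool only, could only differ towards that pool, Gamt had no order, and the members were chosen with these results known, so nothing is read from these counts against that background. Taking the 6 members with a ratio, the log2 ratio (EST KO minus WT) had a median of −0.06, against −0.06 for all measured genes, with 3 members higher and 3 lower. The median hides opposite differences of single enzymes.

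**Figure D1:**
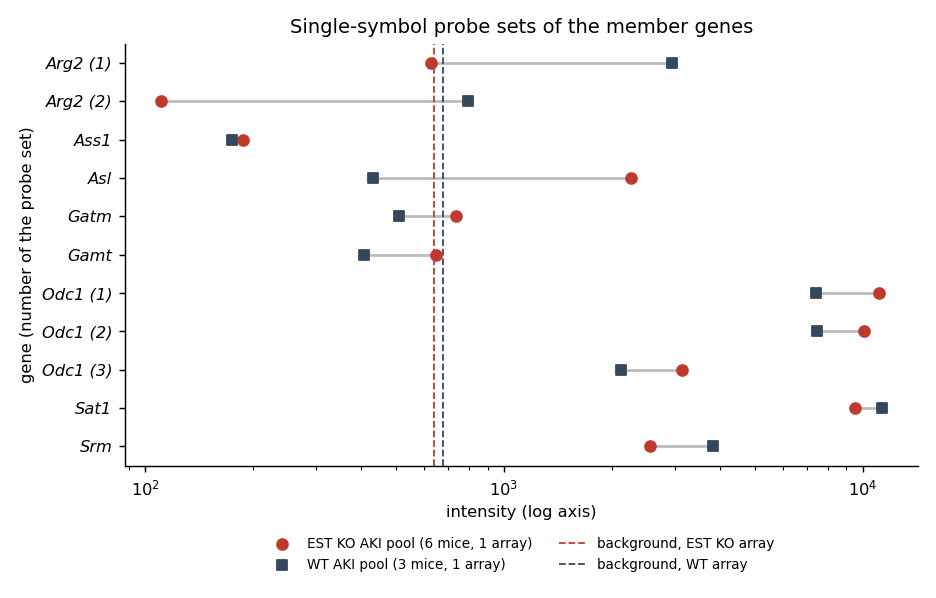
Intensity (log axis) of each probe set given to 1 member gene alone, with the EST KO AKI pool as red circles, the WT AKI pool as dark squares and the background of each array as a dashed line; each point is 1 array of pooled tissue, with no error bar. Both Arg2 probe sets have the EST KO circle on the left and below background, Asl has it on the right at 2265, and all 3 Odc1 probe sets have it on the right.

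Arginine-making enzymes were represented by Asl. The single probe set of Asl, argininosuccinate lyase, read 2265 in the EST KO pool and 431.2 in the WT pool. The WT value was below background, so Asl was higher in the EST KO pool by at least 3.35-fold (log2 at least 1.74). On the deposited values with no background level the ratio was 5.25-fold. Of the 658 genes above background in the EST KO pool only, 41 (6.23%) passed 2-fold.

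Ass1, argininosuccinate synthase, had 1 probe set of its own, which read 187.2 in the EST KO pool and 174.2 in the WT pool. Both values lay below background, so no fold is given for Ass1. A second probe set was annotated to Ass1 and to Gm5424, a transcribed pseudogene, and stood outside the rule. It read 18034 in the EST KO pool and 5516 in the WT pool, 3.27-fold higher. Its annotation cites a transcript that RefSeq lists under Ass1, but which of the 2 genes it read cannot be told apart here.

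Arg2, the mitochondrial arginase and the form known in kidney, was the member with the opposite difference. Its brighter probe set read 624.2 in the EST KO pool and 2945 in the WT pool, and the other read 110.7 in the EST KO pool and 794.6 in the WT pool. Both were above background in the WT pool alone. By the brighter probe set Arg2 was lower in the EST KO pool by at least 4.61-fold (log2 −2.21), and by the other by at least 1.24-fold, whose WT value was close to background. On the deposited values with no background level the ratios were 4.72-fold and 7.18-fold lower, resting on EST KO values below background. With the mean of both bounds the log2 ratio was −1.26, and with a pseudocount it was −1.49. Of the 707 genes above background in the WT pool only, 31 (4.38%) passed 2-fold. Arg1, the cytosolic arginase of liver and of some macrophages, read 12.0 in the EST KO pool and 8.1 in the WT pool, far below background.

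The creatine enzymes Gatm and Gamt were just above background in the EST KO pool and below it in the WT pool. Gatm, which forms guanidinoacetate, read 736.5 in the EST KO pool and 508.2 in the WT pool, and was at least 1.09-fold higher. Gamt, which methylates guanidinoacetate to creatine, read 644.8 in the EST KO pool and 407.3 in the WT pool. The EST KO value of Gamt was above its own background but below that of the WT array, so the order of the pools is not settled. On the deposited values with no background level the ratios were 1.45-fold for Gatm and 1.58-fold for Gamt, both with the EST KO pool higher.

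The polyamine enzymes Odc1, Srm and Sat1 were above background in both pools, and none differed by 2-fold. Odc1, ornithine decarboxylase, which starts polyamine synthesis, was read by 3 probe sets. They gave 11105, 10073 and 3128 in the EST KO pool, against 7421, 7438 and 2117 in the WT pool. All 3 were higher in the EST KO pool, by 1.50-fold, 1.35-fold and 1.48-fold. Srm, spermidine synthase, read 2549 in the EST KO pool and 3821 in the WT pool, and was 1.50-fold lower (log2 −0.58). Sat1, the spermidine and spermine acetyltransferase, read 9535 in the EST KO pool and 11344 in the WT pool, and was 1.19-fold lower (log2 −0.25). The transcript of the first synthetic step was thus higher, and those of the spermidine step and of the acetylating enzyme were lower. The promoters of Odc1 and Sat1 hold the GC boxes shown earlier in capitals, and any part of these in the values was not tested.

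The size of these differences can be set against 2 measures from the arrays. Among the 6115 genes above background in both pools, 524 had a higher log2 ratio than Odc1, 442 had a lower one than Srm, and Sat1 lay at percentile 26.3. In 1663 genes that at least 2 probe sets read above background on both arrays, the log2 ratios of the brightest 2 differed by a median of 0.21, with a 95th percentile of 0.81. The log2 ratios of Odc1 (0.58 at its brightest probe set), Srm (−0.58) and Sat1 (−0.25) were smaller than that 95th percentile. Arg2 and Asl, above background in 1 pool only, are not set against it. The 2 probe sets of Arg2 gave bounds of −2.21 and −0.32, which differ because the second was close to background in the WT pool. Their deposited values gave log2 ratios of −2.24 and −2.84. The median and 95th percentile above measure how far probe sets of a gene disagree, not how far mice differ.

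Spermine synthase, Sms, could not be read by the rule. The 3 probe sets shared between Sms and Sms-ps read 1642, 830.3 and 327.3 in the EST KO pool and 1317, 530.1 and 225.3 in the WT pool. The brightest gave 1.25-fold more in the EST KO pool, the next at least 1.23-fold higher, and the third was below background in both.

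**Figure D2:**
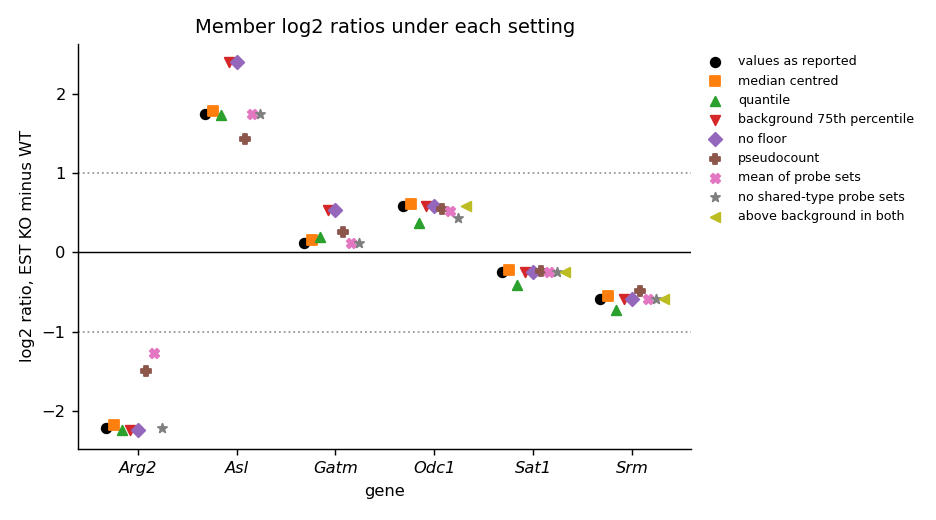
Log2 ratio (EST KO minus WT) of the 6 members with a ratio under the reported setting (black circles) and the 8 alternatives (coloured marks), with dotted lines at 2-fold; each mark is 1 value from 2 arrays. Arg2 stays between −2.24 and −1.26 and Asl between 1.42 and 2.39, while Odc1 (0.37 to 0.61), Sat1 (−0.41 to −0.22) and Srm (−0.73 to −0.48) stay within 2-fold.

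Related genes of arginine, creatine and polyamine handling included 4 past 2-fold. Of 70 related genes in 8 lists, 65 were on the array and 41 were measured, 25 of them higher and 16 lower in the EST KO pool. Among all 7480 measured genes 3262 were higher and 4084 lower. Related genes above background in 1 pool only could only differ towards that pool. At least 2-fold higher were Slc7a7, Slc7a9, Prodh and Ddah1, and none was 2-fold lower. Together they make 9.76% of the measured related genes, against 4.43% of all measured genes past 2-fold either way and 3.02% past it upwards. Ddah1 passed 2-fold by its brightest probe set but not by the mean of its probe sets. The lists were chosen with earlier results of these data known, so nothing is read from that contrast.

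Carriers of basic amino acids led them. Slc7a9, the luminal carrier that takes up arginine, lysine, ornithine and cystine in the proximal tubule, read 7567 in the EST KO pool and 1924 in the WT pool, 3.93-fold higher. Slc7a7, the basolateral carrier through which arginine leaves those cells, read 3375 in the EST KO pool and 843.4 in the WT pool, 4.0-fold higher, and its other probe set was at least 1.90-fold higher. Slc3a1, the partner subunit of Slc7a9, was 1.47-fold higher (5296 in the EST KO and 3614 in the WT pool), and Slc3a2, the partner of Slc7a7, was 1.12-fold lower (7420 in the EST KO and 8296 in the WT pool). The mitochondrial ornithine carrier Slc25a15 (1619 in the EST KO and 1738 in the WT pool) differed by 1.07-fold. Of the 9 measured genes of this list 5 were higher and 4 lower, with a median log2 ratio of 0.17.

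Of the ornithine and proline enzymes, 1 passed 2-fold. Prodh, proline dehydrogenase, read 4280 in the EST KO pool and 1361 in the WT pool, 3.15-fold higher. Aldh4a1, which takes the product of proline oxidation on to glutamate, was 1.91-fold higher (1909 in the EST KO and 998.2 in the WT pool). Oat, ornithine aminotransferase, which competes with Odc1 for ornithine, was 1.16-fold lower (1893 in the EST KO and 2188 in the WT pool). The 3 measured genes had a median log2 ratio of 0.94, with 2 higher and 1 lower.

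Nitric oxide genes went both ways, 5 higher and 5 lower of 10 measured (median log2 ratio −0.06). Ddah1, which degrades methylarginines that inhibit nitric oxide synthases, read 9418 in the EST KO pool and 4253 in the WT pool at its brightest probe set, 2.21-fold higher. Its 5 probe sets above background disagreed: another was 2.09-fold higher, 1 was 1.04-fold higher, 1 was 2.16-fold lower and 1 at least 1.09-fold lower, so that their mean gave a log2 ratio of 0.21. Ddah1 also came under 2-fold after quantile normalization (log2 0.96). Ddah2, a relative known from endothelium and immune cells, was 1.84-fold lower (687.3 in the EST KO and 1266 in the WT pool). Agxt2, which also breaks down methylarginines, was at least 1.98-fold higher (1339 in the EST KO and 637.5 in the WT pool). Nos1, the neuronal-type nitric oxide synthase, was 1.22-fold higher (1340 in the EST KO and 1102 in the WT pool). Nos3, the nitric oxide synthase of endothelium, was lower by at least 1.93-fold (589.2 in the EST KO and 1235 in the WT pool), while Nos2, the inducible form, was far below background in both (42.5 in the EST KO and 41.8 in the WT pool).

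Urea cycle genes of the liver type were mostly not measured. Cps1, which makes carbamoyl phosphate, was barely above background (811.7 in the EST KO and 730.7 in the WT pool), and Otc, which makes citrulline, was below it in both (278.0 in the EST KO and 339.5 in the WT pool). The other measured gene of that list, Azin2, an antizyme inhibitor, was 1.10-fold lower (1118 in the EST KO and 1227 in the WT pool). The median log2 ratio of Cps1 and Azin2 was 0.01, and of these 2 only Cps1 is a urea cycle enzyme. In the creatine list Ckb, the brain-type creatine kinase, was 1.73-fold higher (3170 in the EST KO and 1835 in the WT pool) and Slc6a8, the creatine transporter, 1.13-fold higher (4407 in the EST KO and 3884 in the WT pool). Its other 4 genes were below background, and the median log2 ratio of the 2 measured was 0.49.

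Genes that control or break down polyamines were within 2-fold in either direction, 3 higher and 5 lower of 8 measured (median log2 ratio −0.31). Mtap, which clears the methylthioadenosine left by spermidine and spermine synthesis, was 1.58-fold lower (862.1 in the EST KO and 1360 in the WT pool). Atp13a2, a lysosomal polyamine exporter, was 1.48-fold lower (1096 in the EST KO and 1620 in the WT pool). Smox, spermine oxidase, was 1.39-fold lower (874.4 in the EST KO and 1214 in the WT pool). Atp13a3 was 1.43-fold lower at its brightest probe set (2450 in the EST KO and 3492 in the WT pool). Its other probe set went the opposite way, 1.21-fold higher (1327 in the EST KO and 1098 in the WT pool). Sat2 was 1.32-fold higher (898.8 in the EST KO and 679.2 in the WT pool), with the WT value close to background. Antizymes, which target Odc1 protein for degradation, were near level: Oaz1 was 1.11-fold higher (12079 in the EST KO and 10899 in the WT pool) and Oaz2 1.01-fold higher (2866 in the EST KO and 2842 in the WT pool). Azin1, which relieves Odc1 of antizyme, was 1.10-fold lower at its brightest probe set (1404 in the EST KO and 1550 in the WT pool) and 2.04-fold lower at its other (772.1 in the EST KO and 1575 in the WT pool).

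**Figure D3:**
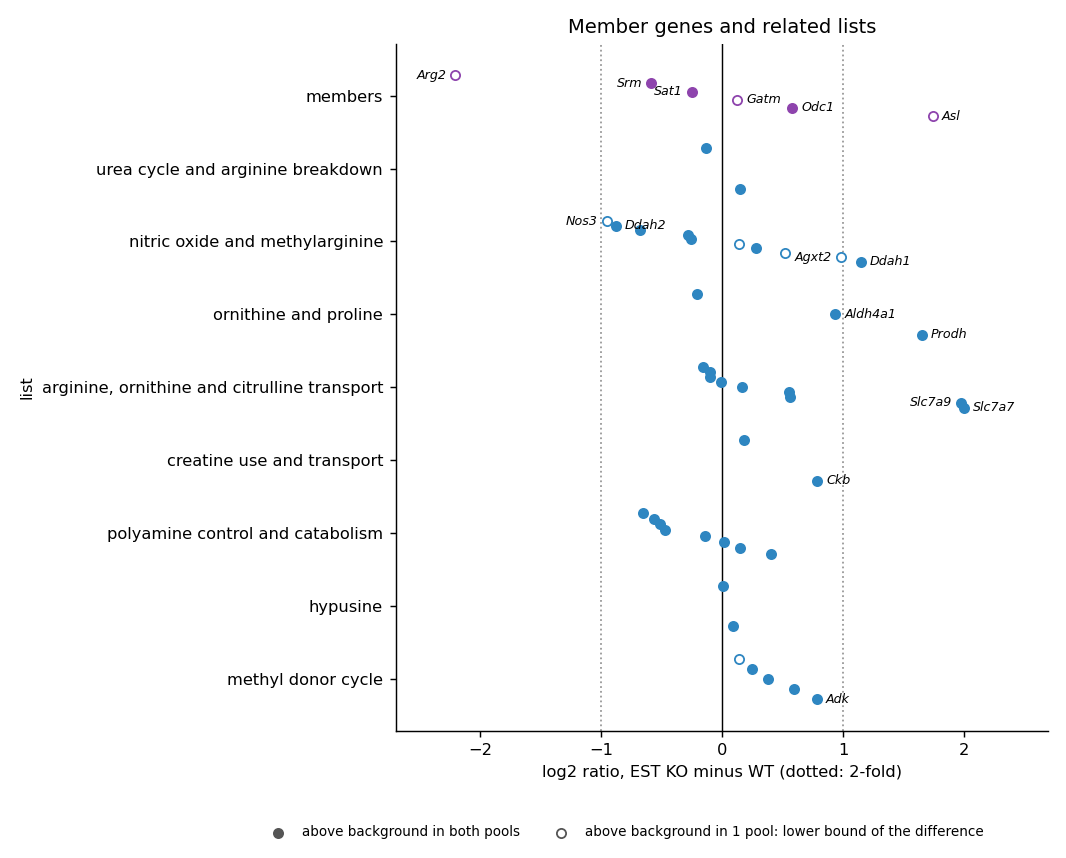
Log2 ratio (EST KO minus WT, horizontal axis) of each member (purple, top) and each gene of the 8 related lists (blue, below), filled where the gene was above background in both pools and open where it was above in 1 pool and the value is a lower bound; dotted lines mark 2-fold and each point is 1 value from 2 arrays. Arg2 (−2.21) stands alone on the left, and Asl, Slc7a7, Slc7a9, Prodh and Ddah1 lie beyond 2-fold on the right.

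Cell markers of the kidney differed between the pools as well, and in bulk tissue fewer cells of a type and less RNA per cell cannot be told apart. Genes of these lists above background in 1 pool only could only differ towards that pool. Those above it in the EST KO pool only were Slc5a12, Slc2a2, Sox9 and Gusb. Those above it in the WT pool only were Slc22a7, Kcnj1, Cd44, Pecam1, Cd68, Mmp8, Apob and Fgb. All 8 early proximal tubule markers were higher in the EST KO pool (summed intensity 56374 in the EST KO pool and 29851 in the WT pool, median log2 ratio 0.87). Of these 8, 6 were above background in both pools. Of 8 measured straight proximal tubule markers 5 were higher and 3 lower (summed over the 10 on the array, 50517 in the EST KO pool and 28970 in the WT pool), with Slc22a6 6.11-fold, Acsm3 2.14-fold and Atp11a 2.14-fold higher and Slc22a7 at least 2.61-fold lower. Of 8 measured tubular injury markers 7 were lower (summed over 10, 58751 in the EST KO pool and 103552 in the WT pool). Of 10 measured male-biased kidney genes 9 were higher (summed 102559 in the EST KO pool and 65438 in the WT pool, median log2 ratio 0.99), beside the higher Odc1. That list was uneven. While 5 genes passed 2-fold upwards, Kap was 1.15-fold higher with its other probe set going the opposite way. Cyp2d9 was 1.68-fold lower. Gusb, at least 1.05-fold higher, was above background in the EST KO pool only and could only be higher. Acsm3 also stands in the straight proximal tubule list, and any share of the proximal tubule shift in the male-biased values was not tested. Macrophage markers were lower for 5 of 6 measured and neutrophil markers for 4 of 4, with Arg1 below background. Endothelial markers were lower for 6 of 6, beside the lower Nos3. The part of these shifts in the values of Arg2, Asl, Odc1, Slc7a7 and Slc7a9 was not tested. Of the other marker lists, the loop and distal nephron had 4 of 6 measured genes higher, the collecting duct 2 higher and 2 lower of 5, podocytes 1 measured and lower, and hepatocytes 3 of 5 higher (Ttr, Cyp2e1 and Cps1) and 2 lower (Apob and Fgb), with Alb, Apoa1, Ahsg, Tat and Otc below background.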

How the data were processed

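Kidney RNA was labelled as biotinylated cRNA from 8 ug of total RNA by the manufacturer's standard protocol for Affymetrix arrays, per the labels' protocols. Analysis started from the intensity that the authors deposited for each probe set on each array. Judged by those values, each array had been scaled to a mean of 500 without its lowest and highest 2%. The scanner software and probe summary method were not stated in the labels. The arrays were not rescaled. Names came from the platform annotation (34958 with 1 gene symbol, 932 with several, 9211 with none), and symbols were updated through Entrez IDs against RefSeq (GRCm38.p6) for 34754 of them. Where a gene had several probe sets, the one with the higher mean intensity over both arrays stood for it. Ratios are EST KO over WT, computed with Python 3.11.15, pandas 2.3.3 and numpy 2.4.6, and the counting step was tested on simulated data. With 1 array per genotype there are no p-values, and the number of arrays limits precision.

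The members and the lists were chosen with earlier results of these data known. Named are all members, Sult1e1, Arg1, Otc, Cps1 and Nos2, and, of each related list, the genes past 2-fold or, where there were none, the 2 with the largest ratio. Slc3a1, Slc3a2, Slc25a15, Aldh4a1, Oat, Agxt2, Nos1, Ddah2, Nos3, Smox, Oaz1, Oaz2, Azin1, Cbs, Bhmt2, Dohh, Eif5a2 and the marker genes were named after their values were seen. Sat2 and Atp13a3 were likewise named after their values were seen. Alternatives covered scaling, background level, dim values and probe set choice.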

Additional observations from a re-analysis of the deposited data

Results flagged for a closer look

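The 3 results below come from probe sets that no comparison of single genes used, because each is annotated to a member and to a pseudogene, and each read higher in the EST KO pool than in the WT pool. The probe set shared by Ass1 and Gm5424, read 18034 in the EST KO pool and 5516 in the WT pool (3.27-fold). The brightest 2 of the probe sets shared by Sms and Sms-ps read 1642 and 830.3 in the EST KO pool, and 1317 and 530.1 in the WT pool, the last below background. Which gene each read was not tested.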

How the results depend on the processing

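Arg2, Asl, Gatm, Odc1, Sat1 and Srm kept their direction, and Arg2 and Asl stayed past 2-fold while the other 4 stayed within it, under every alternative that gave them a value. Requiring a gene to be above background in both pools left no value for Arg2, Asl, Gatm and Gamt, so that 0 members were 2-fold higher and 0 lower, by construction. Arg2 had a log2 ratio of −1.49 with a pseudocount of 657.2 and −1.26 with the mean of its probe sets. Asl was at 2.39 with the background at the 75th percentile and with no background level. Gamt, without an order as reported, was at 0.66 under both of those settings, 0.29 with the pseudocount and 0.0019 with quantile normalization. The members' median log2 ratio was 0.54 under both, 0.26 with the pseudocount and 0.0019 with quantile normalization, so it has no settled sign. Over all genes, those at least 2-fold lower numbered 204 with the 75th percentile, 197 with no background level and 39 with the pseudocount, which gave 133 higher, against 105 lower and 226 higher as reported. List medians near 0 changed sign. Nitric oxide genes were at 0.0089 with the 75th percentile and with no background level. They were at 0.14 after dropping probe sets of the _s_at and _x_at types. The urea cycle list, which includes Azin2, was at −0.13 with the 75th percentile and −0.0018 with the pseudocount. The hypusine list was at −0.14 with the 75th percentile and −0.045 with quantile normalization. Larger list medians moved too. That of the methyl donor list, described below, was 0.38 as reported. It rose to 0.49 with the 75th percentile and 0.60 with no background level. After dropping the _s_at and _x_at types it fell to 0.25. With the 75th percentile the ornithine and proline median was 0.36, against 0.94 as reported. The creatine median was 0.07 under that setting, against 0.49 as reported. The cause of these shifts was not tested. No paired analysis was possible because each genotype has 1 pooled array. Signal near background limits Gatm and Gamt, and values below it limit the size of the Arg2 and Asl differences. The probe set of Ass1 alone was far below background in both pools. The one shared with Gm5424, outside the rule, was bright in both (18034 in the EST KO and 5516 in the WT pool).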

Other observations

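All 5 measured genes of the methyl donor cycle, which supplies the S-adenosylmethionine used by Gamt and Amd1, were higher in the EST KO pool, with a median log2 ratio of 0.38 and none past 2-fold. Adk, adenosine kinase, read 4093 in the EST KO pool and 2380 in the WT pool (1.72-fold higher), with its other probe set 1.16-fold higher. Ahcy, which splits S-adenosylhomocysteine, read 5025 in the EST KO pool and 3319 in the WT pool (1.51-fold higher). Cbs, which draws homocysteine towards cysteine, was 1.30-fold higher (939.2 in the EST KO and 722.5 in the WT pool). Bhmt2, a homocysteine methyltransferase, was at least 1.10-fold higher (745.1 in the EST KO and 161.5 in the WT pool). Above background in the EST KO pool only, Bhmt2 could only be higher.

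Spermidine is also the donor for hypusine, the modified lysine of the translation factor Eif5a. Eif5a read 13030 in the EST KO pool and 12224 in the WT pool (1.07-fold higher, with its other probe set 1.01-fold lower), and Dhps, deoxyhypusine synthase, read 1817 in the EST KO pool and 1809 in the WT pool. Dohh and Eif5a2 were below background in both pools.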
